A study of Homo sapiens with 36 samples.

Results

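The genes of a set of plasma membrane amino acid transporters were followed across 6 colon cancer cell lines treated with the BET bromodomain inhibitor JQ1. The 10 genes were SLC38A5, SLC38A1, SLC38A2, SLC7A5, SLC3A2, SLC1A5, SLC1A4, SLC7A1, SLC43A1 and SLC6A6, of the 26468 genes in the expression table. SLC38A5 was chosen because earlier results of these data showed it falling steeply with JQ1, so its change is described below without a test. The other 9 were chosen by name as transporters of the same pathway, with those results known. All 10 passed the filter on low values (at least 1 RPKM, reads per kilobase of gene, scaled to sequencing depth, in at least 3 libraries), SLC38A5 through its level in 3 of the 6 lines.

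Cells cannot make enough of most amino acids for rapid growth and take them up through solute carriers, each of which accepts its own range of substrates. Small neutral amino acids such as glutamine enter with sodium through the SLC38 and SLC1 families. The exchanger LAT1 (SLC7A5, held at the membrane by SLC3A2) passes large neutral amino acids such as leucine inwards in return for others. JQ1 displaces BET proteins from acetylated chromatin. Transcription factors known to act on transporter genes include MYC, whose RNA is widely lowered by BET inhibitors, and ATF4, the effector of the amino acid response.

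For each of HCT 116, SW 480, HT-29, COLO 205, HCT-15 and COLO 320, 3 libraries came from cells given 0.5 µM JQ1 for 24 h and 3 from cells given the solvent DMSO for the same time. The 36 libraries therefore form 12 groups, with 1 dose, 1 time and 1 established line behind each comparison. No label says that libraries of a group came from separate cultures, so the spread that p-values rest on may be technical. Depth was 18.8 to 53.1 M reads per library (median 24.5 M). Summed RPKM of 7 epithelial markers was 883 to 1162 in COLO 320 and 1331 to 8795 in the other lines. In COLO 320 that sum was mostly CDX2 at a mean of 973 RPKM. KRT8 and KRT18 averaged 20.1 and 32.5 RPKM there, and EPCAM, CDH1, KRT19 and VIL1 averaged 0.722, 0.00492, 0.0200 and 0.0326 RPKM. With JQ1, 5 of the 7 epithelial markers fell in COLO 320, 4 fell and 3 rose in SW 480, and 5 rose and 1 fell in each of the other 4 lines. Of all genes tested, 31% to 36.6% were called higher in a line and 35.4% to 40.1% lower. The 7 epithelial markers summed to 8688 to 8795 RPKM with JQ1 and 3833 to 3901 RPKM with DMSO in HT-29. In HCT-15 these markers summed to 7072 to 7164 RPKM with JQ1 and 2323 to 2346 RPKM with DMSO. Fibroblast markers summed to 2.93 to 15.8 RPKM in COLO 320 and to 3.38 RPKM or less in the other lines. In COLO 320 all 3 of the 6 that could be tested fell with JQ1, beside 37.2% of all genes tested. Leukocyte markers summed to 0.357 to 0.497 RPKM with JQ1 and 5.26 to 5.73 RPKM with DMSO in SW 480, where LAPTM5 made up most of the sum and PTPRC averaged 0.00177 RPKM. In COLO 320 they summed to 5.29 to 6.31 RPKM with JQ1 and 5.84 to 6.41 RPKM with DMSO, with PTPRC at a mean of 3.77 RPKM, and in the other lines to 0.903 RPKM or less. Neuroendocrine markers summed to 8.81 to 51.7 RPKM. Their sum was higher with JQ1 than with DMSO in every line but COLO 320, where the groups overlapped. ENO2, at 7.39 to 39.5 RPKM, made up most of that sum in every line. SYP reached at most 5.61 RPKM and INSM1 at most 0.0865 RPKM. Endothelial markers summed to at most 0.200 RPKM. The part of these markers in the results on transporters was not tested. These are bulk samples, so fewer cells of a kind and less RNA per cell cannot be told apart.

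Sequences around the gene starts of the members are shown because MYC and ATF4 fell in most lines and have known recognition letters. CACGTG is the E-box bound by MYC with its partner MAX, and TGATGNAAN is an amino acid response element bound by ATF4. Both were searched on both strands in 300-base windows, 250 bases before to 50 after each gene start, in the RefSeq promoter table of GRCh38.p14. The table held 16 windows for 9 of the 10 members. SLC6A6 had no entry. CACGTG occurred in a window of SLC38A5, SLC7A5, SLC1A5 and SLC43A1, and in 7.26% of all 35116 windows (8.77% of genes with a window). The 250 bases before the start of 3 of these are given 5′ to 3′ on the gene's strand, with CACGTG in capitals. They lie at chrX:48470261-48470510 for SLC38A5, chr16:87869508-87869757 for SLC7A5 and chr11:57515703-57515952 for SLC43A1, all on the minus strand.
SLC38A5: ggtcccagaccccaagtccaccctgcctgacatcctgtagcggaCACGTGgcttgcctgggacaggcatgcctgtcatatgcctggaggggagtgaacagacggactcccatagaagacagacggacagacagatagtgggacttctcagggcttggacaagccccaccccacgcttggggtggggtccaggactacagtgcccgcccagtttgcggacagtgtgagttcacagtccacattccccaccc
SLC7A5: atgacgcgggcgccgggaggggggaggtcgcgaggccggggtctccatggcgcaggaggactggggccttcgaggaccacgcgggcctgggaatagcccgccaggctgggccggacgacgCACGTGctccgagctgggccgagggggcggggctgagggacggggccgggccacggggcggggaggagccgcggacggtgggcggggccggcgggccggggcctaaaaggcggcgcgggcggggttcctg
SLC43A1: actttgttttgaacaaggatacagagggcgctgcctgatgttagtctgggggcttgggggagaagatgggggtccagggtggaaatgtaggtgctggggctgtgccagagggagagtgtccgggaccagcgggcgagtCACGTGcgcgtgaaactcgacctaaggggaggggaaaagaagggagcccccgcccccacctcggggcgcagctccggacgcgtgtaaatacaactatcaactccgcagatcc

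The E-box began 206 bases before the start of SLC38A5, 130 before SLC7A5, 112 before SLC43A1 in 1 of its 2 windows, and 50 before SLC1A5 in 1 of its 3 windows. TGATGNAAN occurred in a window of SLC38A1, SLC3A2, SLC1A5, SLC1A4 and SLC7A1, and in 3.61% of all windows (4.45% of genes). These 5 matches are given with up to 10 bases on each side, on the gene's strand, the match in capitals. They lie at chr12:46266502-46266530 (minus strand) for SLC38A1, chr11:62881725-62881748 (plus strand) for SLC3A2 and chr19:46784893-46784921 (minus strand) for SLC1A5. The other two lie at chr2:64989381-64989409 (plus strand) for SLC1A4 and chr13:29595663-29595691 (minus strand) for SLC7A1. In SLC3A2 and SLC1A4 the letters are those of the opposite strand. Read on the gene's strand, the match began 97 bases before the start in SLC1A5, 8 before it in SLC1A4 and 4 before it in SLC38A1. In SLC7A1 and SLC3A2 the match began after the start, at bases 8 and 37.
SLC38A1: cagacccgaaTGATGAAAAgggatcagct
SLC3A2: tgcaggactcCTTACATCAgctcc
SLC1A5: aggaagtggcTGATGCAAGctgtccaggg
SLC1A4: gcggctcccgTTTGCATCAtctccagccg
SLC7A1: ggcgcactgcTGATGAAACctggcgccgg
Neither motif was found in the SLC38A2 window. No match to one motif overlapped a match to the other in these windows. A match is a run of letters, with no binding measured here.

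SLC38A5 (SNAT5), which carries glutamine, asparagine, serine and histidine with sodium in exchange for protons, was expressed in 3 lines and near 0 in the other 3. In HCT 116 it stood at 4.21, 3.59 and 3.82 RPKM in JQ1 libraries, against 31.3, 29.6 and 29.9 RPKM in DMSO libraries. In SW 480 it stood at 11.3, 11.4 and 12.2 RPKM with JQ1, against 64.6, 63.0 and 65.6 RPKM with DMSO. In HT-29 it stood at 0.489, 0.520 and 0.448 RPKM with JQ1, against 26.6, 25.9 and 26.2 RPKM with DMSO. Every JQ1 library lay below every DMSO library of its line in these 3 lines. SW 480 had the highest level under both treatments, and HT-29 had the lowest among them. On recovered reads the JQ1 over DMSO ratio was 0.129 in HCT 116 (exact 95% interval 0.117 to 0.141, 528 and 4813 reads). It was 0.181 in SW 480 (0.172 to 0.190, 1838 and 9997 reads). It was 0.0186 in HT-29 (0.0150 to 0.0229, 93 and 3628 reads), where the DMSO mean was 54.1 times the JQ1 mean. The intervals cover counting error only, not the spread between libraries, and are given as a description.

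In COLO 205, SLC38A5 was at 0.0202, 0 and 0.0381 RPKM with JQ1, against 0.411, 0.523 and 0.405 RPKM with DMSO. These are 3 reads in all JQ1 libraries and 61 in all DMSO libraries, a ratio of 0.0450 (0.00902 to 0.138). The library with 0 reads allows a level of up to 0.0610 RPKM, at 3 reads. In HCT-15 the values were 0.0604, 0.0647 and 0.0372 RPKM with JQ1, against 0.167, 0.0356 and 0.101 RPKM with DMSO. In COLO 320 they were 0.0175, 0.0638 and 0.0180 RPKM with JQ1, against 0.0539, 0.0877 and 0.0883 RPKM with DMSO. The groups did not overlap in COLO 205 and overlapped in HCT-15 and COLO 320, where the levels rest on 9 and 5 reads with JQ1 and 17 and 13 reads with DMSO. On the log2(RPKM + 0.5) scale, which understates the change of low genes, the difference was -2.82 in HCT 116, -2.42 in SW 480, -4.76 in HT-29 and -0.86 in COLO 205. It was -0.11 in both HCT-15 and COLO 320.

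**Figure D1:**
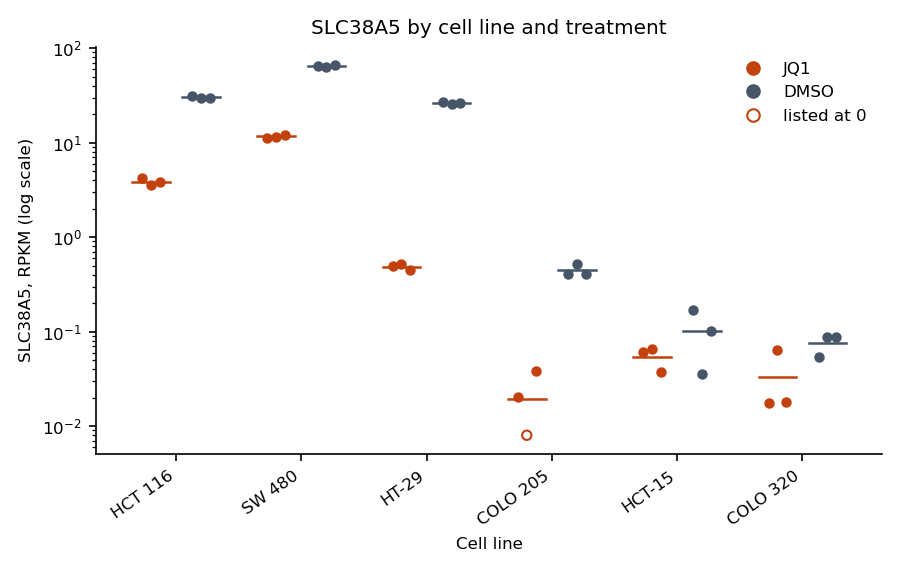
SLC38A5 in each of the 36 libraries, in RPKM on a log axis, by cell line, with JQ1 left of DMSO; points are libraries, lines are means of 3, and the open circle is the COLO 205 JQ1 library listed at 0, placed at the foot of the axis. The JQ1 points lie below the DMSO points in HCT 116, SW 480, HT-29 and COLO 205, and the groups overlap in HCT-15 and COLO 320.

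SLC38A1 and SLC38A2 (SNAT1 and SNAT2), the sodium-coupled carriers of system A that bring in glutamine and alanine, moved apart with JQ1. SLC38A1 fell in all 6 lines, as did 11.7% of the 15542 genes tested. SLC38A1 in HT-29 stood at 20.3, 20.4 and 20.6 RPKM with JQ1, against 57.6, 58.3 and 58.2 RPKM with DMSO. That is a log2 change of -1.48 ± 0.02 (SE), with a limma Benjamini-Hochberg adjusted p of 2.07e-30. SW 480 had its smallest change, with 55.2, 53.1 and 53.5 RPKM in JQ1 libraries, against 65.0, 68.9 and 67.8 RPKM in DMSO libraries (-0.31 ± 0.02, adjusted p 5.94e-15). The changes in HCT 116, COLO 205, HCT-15 and COLO 320 were -0.89, -0.70, -0.92 and -0.51, and JQ1 and DMSO libraries overlapped in none of the 6 lines.

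SLC38A2, which in many cells is raised by amino acid shortage, rose in 5 lines and fell in HCT 116. SW 480 libraries had 78.1, 74.6 and 75.6 RPKM with JQ1, against 42.9, 43.6 and 44.4 RPKM with DMSO (log2 change 0.79 ± 0.03, limma adjusted p 1.52e-20). In HCT 116, the line with the highest level, it stood at 159.7, 156 and 159 RPKM with JQ1, against 219, 227 and 239 RPKM with DMSO (-0.53 ± 0.03, adjusted p 3.08e-16). The other rises were 0.40 in HT-29, 0.44 in COLO 205, 0.24 in HCT-15 and 0.16 in COLO 320. Groups did not overlap in any line.

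The ratio of SLC38A2 to SLC38A1 was higher with JQ1 in every line, with no overlap between groups. It was 4.65 ± 0.06 with JQ1 and 3.60 ± 0.18 with DMSO in HCT 116 (SD, n = 3 each, as for all ratios here). It was 1.41 ± 0.01 with JQ1 and 0.650 ± 0.015 with DMSO in SW 480, and 2.73 ± 0.08 with JQ1 and 0.727 ± 0.015 with DMSO in HT-29. In COLO 205 it was 1.47 ± 0.02 with JQ1 and 0.661 ± 0.003 with DMSO. In HCT-15 it was 1.84 ± 0.07 with JQ1 and 0.818 ± 0.010 with DMSO, and in COLO 320 it was 1.34 ± 0.02 with JQ1 and 0.839 ± 0.010 with DMSO. In 5 of 6 lines the SLC38A2 level per length was thus above that of SLC38A1 with JQ1 and below it with DMSO.

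**Figure D2:**
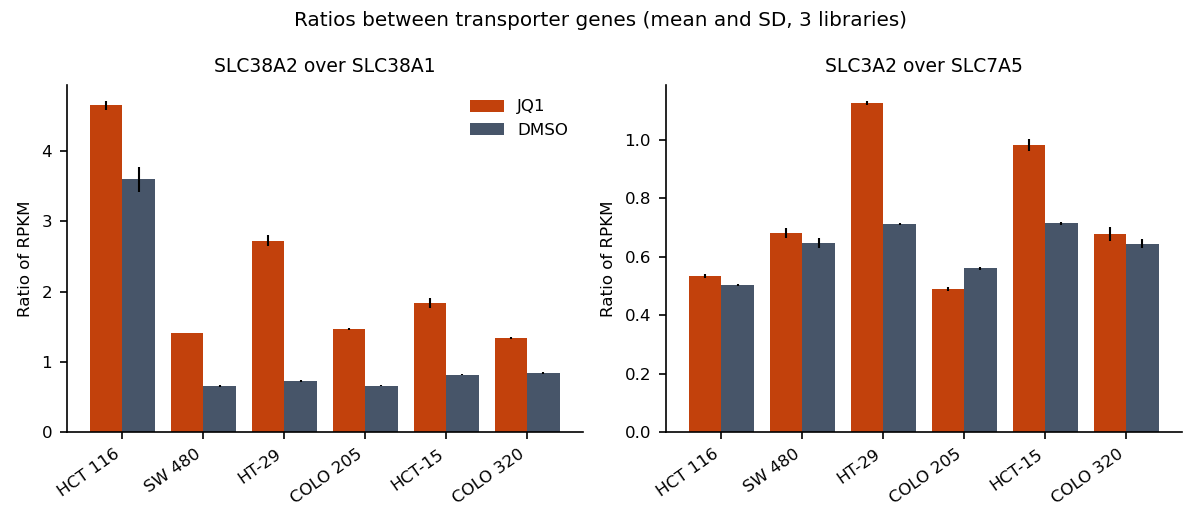
Ratio of RPKM between SLC38A2 and SLC38A1 (left) and between SLC3A2 and SLC7A5 (right) by cell line, with JQ1 left of DMSO; bars are means of 3 libraries and error bars SD. The left ratio is higher with JQ1 in all 6 lines, while the right one is lower with JQ1 in COLO 205.

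SLC7A5 and SLC3A2 encode the light and heavy chains of LAT1, and SLC3A2 (CD98) also pairs with other SLC7 light chains. SLC7A5 fell in HCT 116, HT-29 and COLO 320 and rose in COLO 205. HT-29 held it at 34.6, 34.5 and 33.2 RPKM with JQ1, against 103 RPKM in each of the DMSO libraries (log2 change -1.58 ± 0.03, limma adjusted p 5.45e-26). In COLO 320 it stood at 106, 107 and 111 RPKM with JQ1, against 183, 173 and 181 RPKM with DMSO (-0.73). COLO 205 had the highest JQ1 level of all lines, with 376, 371 and 376 RPKM, against 304, 301 and 314 RPKM in its DMSO libraries (0.29, adjusted p 3.26e-09). In HCT 116 the change was -0.43. In SW 480 (-0.02, adjusted p 0.554) and HCT-15 (0.05, adjusted p 0.131) the difference did not pass the threshold. The HCT-15 groups did not overlap, and the rise there passed with voom (0.07, adjusted p 0.0202) or the line fitted alone (adjusted p 0.00250). With quantile scaling a fall passed in SW 480 (-0.09, adjusted p 0.00998). SLC7A5 has 2 near-identical copies in the table, SLC7A5P1 and SLC7A5P2, whose mean levels were 1.69 and 0.499 RPKM against 213 RPKM for SLC7A5. How the authors assigned reads that fit both is not known, so its level is uncertain to that extent.

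SLC3A2 fell in HCT 116 (-0.34), HT-29 (-0.92) and COLO 320 (-0.65), as SLC7A5 did, and rose in COLO 205 (0.09) and HCT-15 (0.51). Its HT-29 level was 39.2, 38.6 and 37.4 RPKM with JQ1, against 72.8, 73.2 and 74.0 RPKM with DMSO (limma adjusted p 3.98e-23). In HCT-15 it stood at 232, 225 and 227 RPKM with JQ1, against 159.8, 161 and 158 RPKM with DMSO (adjusted p 5.43e-17). In SW 480 the change of 0.05 did not pass (adjusted p 0.0557), though it did without DMSO replicate 1 (0.07, adjusted p 0.0244) or without JQ1 replicate 1 (0.07, adjusted p 0.0338). The SW 480 change also passed with median centring (0.08, adjusted p 0.00232) and with voom (0.07, adjusted p 0.00686). The ratio of SLC3A2 to SLC7A5 was 1.13 ± 0.01 with JQ1 and 0.712 ± 0.005 with DMSO in HT-29, and 0.983 ± 0.021 with JQ1 and 0.714 ± 0.005 with DMSO in HCT-15. In COLO 205 it was 0.490 ± 0.008 with JQ1 and 0.560 ± 0.005 with DMSO. In the other 3 lines both ratios lay between 0.503 and 0.682.

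SLC43A1 (LAT3), a facilitator of leucine and other large neutral amino acids that needs no partner chain, had the largest average change of the 9 tested members. In COLO 205 it stood at 1.89, 2.41 and 2.02 RPKM with JQ1, against 14.2, 14.4 and 14.3 RPKM with DMSO (log2 change -2.51 ± 0.07, limma adjusted p 2.09e-22). HT-29 followed with 6.16, 6.58 and 6.87 RPKM with JQ1, against 24.7, 24.5 and 25.1 RPKM with DMSO (-1.85, adjusted p 2.54e-19). It also fell in HCT-15 (-1.21), HCT 116 (-0.59) and COLO 320 (-0.27). In SW 480 the JQ1 libraries, at 8.60, 8.84 and 9.40 RPKM, all lay above the DMSO libraries, at 7.96, 8.18 and 7.83 RPKM, but the change of 0.15 did not pass (adjusted p 0.0567). Without JQ1 replicate 1 of SW 480 it passed (0.18, adjusted p 0.0494). It also passed with pseudocount 1, median centring, quantile scaling, voom or the line fitted alone (adjusted p 0.00376 to 0.0390).

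SLC1A5 (ASCT2) and SLC1A4 (ASCT1) exchange neutral amino acids in a sodium-dependent way, ASCT2 being a main glutamine route in many tumour cells. SLC1A5 rose in COLO 205, HCT-15 and HCT 116 and fell in HT-29, COLO 320 and SW 480. COLO 205 libraries had 638, 643 and 647 RPKM with JQ1, against 469, 472 and 488 RPKM with DMSO (log2 change 0.43 ± 0.03, limma adjusted p 1.97e-13). The HT-29 libraries had 192, 187 and 185 RPKM with JQ1, against 252, 257 and 248 RPKM with DMSO (-0.42, adjusted p 2.97e-13). The changes were 0.22 in HCT-15 and -0.27 in COLO 320. In SW 480 (-0.11) the JQ1 values of 501, 526 and 541 RPKM overlapped the DMSO values of 583, 537 and 569.5 RPKM, although the fit over all lines called a fall (adjusted p 0.00210), which was lost with the line fitted alone (adjusted p 0.0683). In HCT 116 (0.09, adjusted p 0.00836) the call was lost without DMSO replicate 1 (0.06, adjusted p 0.107), with the line fitted alone (adjusted p 0.0794) and with total reads as divisor (adjusted p 0.0542).

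SLC1A4 rose in SW 480 and HCT 116 and fell in HT-29, COLO 205 and COLO 320. In SW 480 it stood at 32.2, 33.0 and 31.9 RPKM with JQ1, against 15.4, 15.2 and 15.5 RPKM with DMSO (log2 change 1.05 ± 0.06, limma adjusted p 4.91e-16). HT-29, a low line, had 2.27, 2.21 and 2.82 RPKM with JQ1, against 3.77, 3.81 and 3.94 RPKM with DMSO (-0.57). In COLO 205, its highest line, it stood at 52.1, 52.4 and 52.2 RPKM with JQ1, against 66.8, 64.5 and 66.9 RPKM with DMSO (-0.34). The change was 0.26 in HCT 116 and -0.16 in COLO 320 (adjusted p 0.0155). The COLO 320 call was lost without DMSO replicate 2 (-0.13, adjusted p 0.0665) or without JQ1 replicate 2 (-0.13, adjusted p 0.0731). In HCT-15 the change of 0.09 did not pass (adjusted p 0.184), though it did with voom (0.10, adjusted p 0.00821) or the line fitted alone (adjusted p 0.0139).

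SLC7A1 (CAT1), the widespread carrier of arginine and lysine, fell in 5 lines and rose in SW 480. In HT-29 it stood at 36.1, 37.0 and 36.6 RPKM with JQ1, against 102, 104 and 103 RPKM in the DMSO libraries (log2 change -1.48 ± 0.02, limma adjusted p 8.09e-28). COLO 205 libraries had 37.9, 39.2 and 39.7 RPKM with JQ1, against 100.2, 98.7 and 99.0 RPKM with DMSO (-1.34). Those of SW 480 had 57.0, 59.9 and 58.4 RPKM with JQ1, against 53.7, 53.4 and 54.7 RPKM with DMSO (0.11, adjusted p 0.000157). Its changes in HCT 116, HCT-15 and COLO 320 were -0.77, -0.54 and -0.49. HT-29 and COLO 205 had the highest DMSO levels and the largest falls, while HCT 116, with the lowest DMSO mean, had the next largest fall.

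SLC6A6, the sodium and chloride coupled taurine carrier, had the narrowest range of changes, -0.21 in COLO 320 to 0.19 in HT-29. It rose in HT-29 and COLO 205 and fell in the other 4 lines. In HT-29 it stood at 15.4, 14.8 and 15.4 RPKM with JQ1, against 13.0, 13.2 and 13.7 RPKM with DMSO (limma adjusted p 7.50e-07). In COLO 320 it stood at 21.3, 20.2 and 21.0 RPKM with JQ1, against 24.7, 24.2 and 23.9 RPKM with DMSO (adjusted p 9.26e-08). Groups did not overlap in any line.

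**Figure D3:**
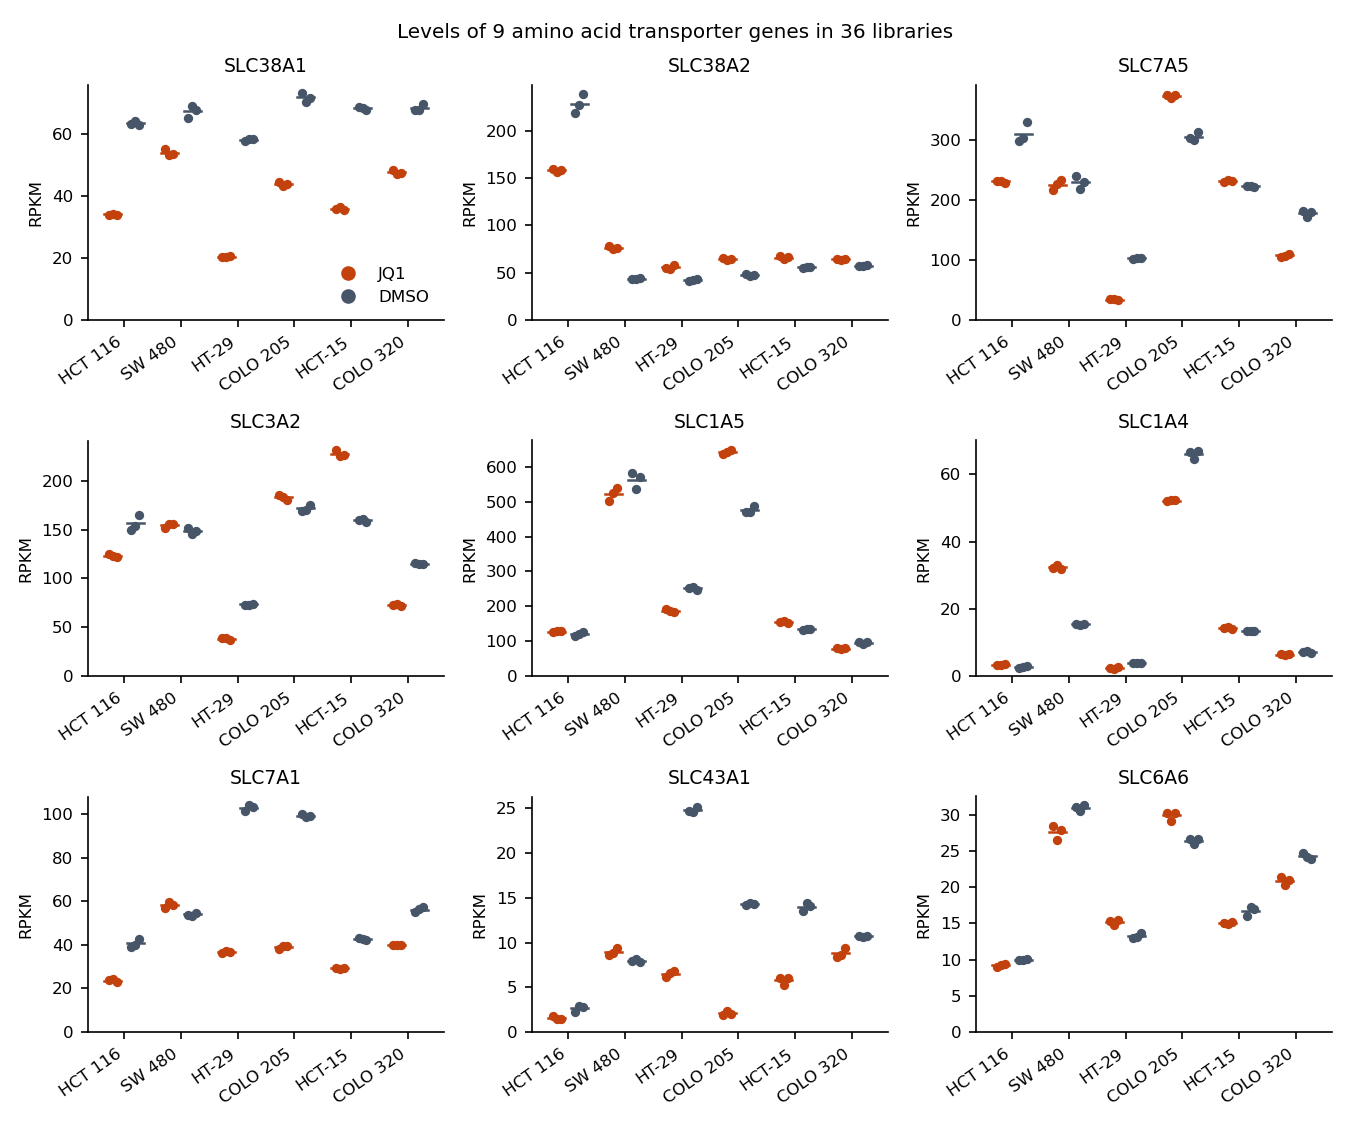
RPKM of the 9 members other than SLC38A5 in each of the 36 libraries, 1 panel a gene, by cell line, with JQ1 left of DMSO; points are libraries and lines are means of 3, and each axis starts at 0. SLC38A1 is lower with JQ1 in all 6 lines, while SLC38A2 is lower with JQ1 in HCT 116 and higher in the other 5.

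Counted by line, the members moved in both directions. In HT-29, 2 of the 9 tested members rose (background 36.6% of genes tested) and 7 fell (37.3%). In HCT 116, 2 rose (32.4%) and 7 fell (35.5%), and in COLO 320, 1 rose (31%) and 8 fell (37.2%). In COLO 205, 5 rose (34.2%) and 4 fell (38.6%). In HCT-15, 3 rose (34.8%), 4 fell (35.4%) and 2 did not pass. In SW 480, 3 rose (33.9%), 3 fell (40.1%) and 3 did not pass. The median change of the 9 was -0.92 in HT-29, -0.43 in HCT 116, -0.27 in COLO 320, 0.05 in SW 480, 0.05 in HCT-15 and 0.09 in COLO 205, while the median over all genes was between -0.02 and 0.00 in every line. JQ1 and DMSO libraries did not overlap for 9 of 9 members in HCT 116 (69.1% of genes), HT-29 (75%), COLO 205 (74%), HCT-15 (73.2%) and COLO 320 (71.6%). In SW 480 this held for 6 of 9 (73.8%).

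**Figure D4:**
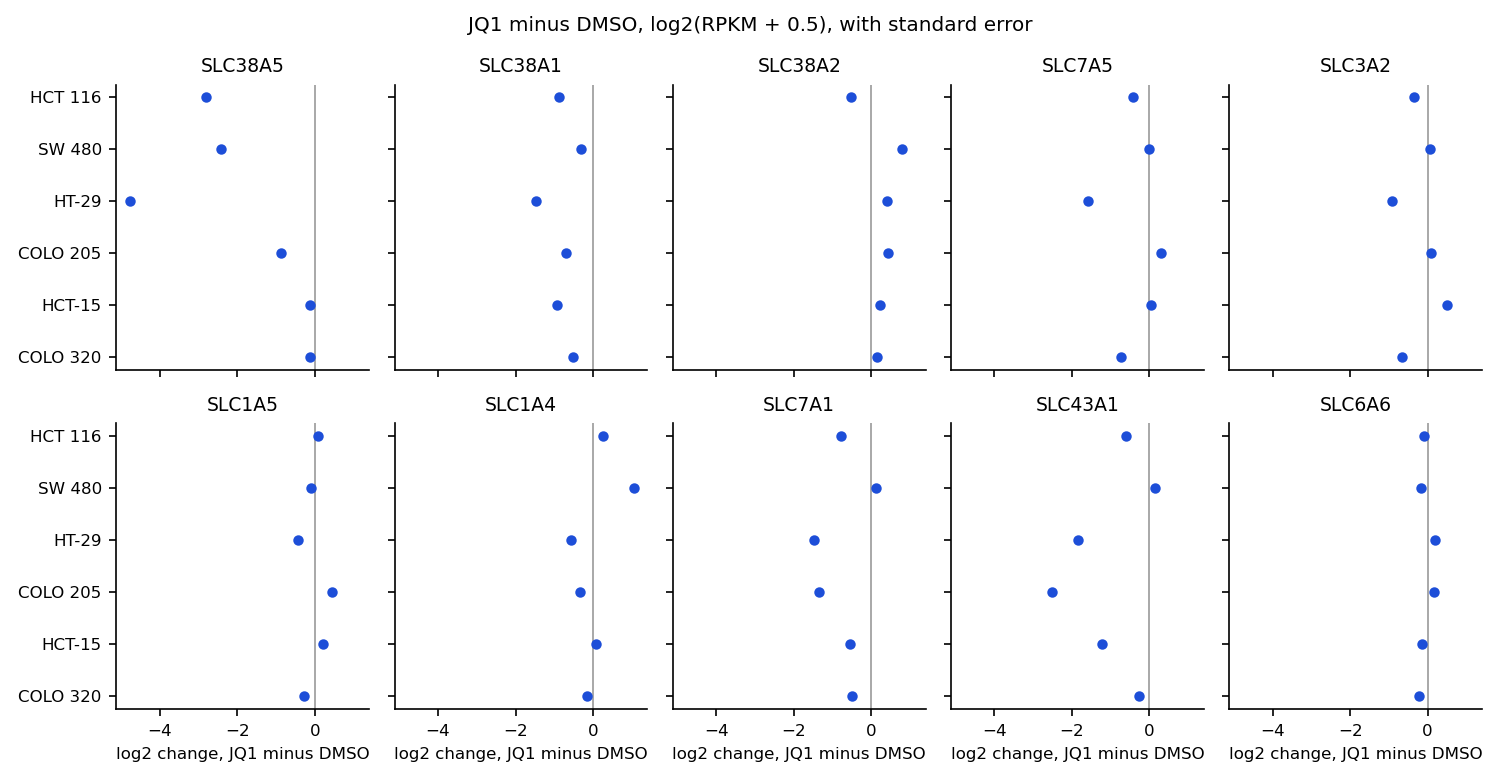
JQ1 minus DMSO on the log2(RPKM + 0.5) scale for the 10 members, 1 panel a gene, with the 6 cell lines down the page; points are estimates from 3 libraries a group and bars are standard errors, most of them hidden by the symbols. SLC38A5 spans -4.76 in HT-29 to -0.11 in HCT-15 and COLO 320, and SLC6A6 stays between -0.21 and 0.19.

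Averaged over the 6 lines, 2 of the 9 members rose (40.2% of genes tested), 6 fell (48.3%) and 1 did not pass. The falls were -1.05 ± 0.03 for SLC43A1 (limma adjusted p 2.73e-23), -0.80 ± 0.01 for SLC38A1 (adjusted p 4.23e-34), -0.75 ± 0.01 for SLC7A1 (adjusted p 8.94e-31), -0.40 for SLC7A5, -0.21 for SLC3A2 and -0.04 for SLC6A6. SLC38A2 rose by 0.25 and SLC1A4 by 0.06, and SLC1A5 differed by -0.01 (adjusted p 0.427). The median of the 9 was -0.21, against -0.04 over all genes. With the cell line as the unit the falls of SLC38A1, SLC7A1 and SLC43A1 still passed (adjusted p 0.00495, 0.0225 and 0.0415). Those of SLC7A5 (0.200), SLC3A2 (0.385) and SLC6A6 (0.688) and the rises of SLC38A2 (0.233) and SLC1A4 (0.834) did not. At that unit 2815 of the 15542 genes tested were called higher and 3086 lower. The SLC1A4 average turned to -0.14 without SW 480. The JQ1 effect differed between lines for 9 of 9 members by the F test, as for 93.3% of genes tested.

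The summed level of the 10 members showed how these changes added up in each line. It was 398 ± 3 RPKM with JQ1 and 699.5 ± 4.5 RPKM with DMSO in HT-29, 447 ± 4 RPKM with JQ1 and 613 ± 9 RPKM with DMSO in COLO 320, and 716 ± 4 RPKM with JQ1 and 966 ± 42 RPKM with DMSO in HCT 116 (SD, n = 3 each). In COLO 205 it was 1432 ± 4 RPKM with JQ1 and 1280.1 ± 20.4 RPKM with DMSO, and in HCT-15 it was 781 ± 3 RPKM with JQ1 and 727 ± 4 RPKM with DMSO. In SW 480 the sums of 1172 ± 29 RPKM with JQ1 and 1225 ± 38 RPKM with DMSO overlapped. Each sum includes SLC38A5, which was chosen for its fall. In SW 480 it averaged 11.6 RPKM with JQ1 and 64.4 RPKM with DMSO, a gap about as wide as that between the sums there. SLC1A5 and SLC7A5 together made up 41.7% to 71.0% of the sum with JQ1 and 44.7% to 64.7% with DMSO.

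Without drug the lines differed most in SLC38A5, whose highest DMSO mean (SW 480) was 840 times its lowest (COLO 320). Its DMSO order was SW 480, HCT 116, HT-29, COLO 205, HCT-15 and COLO 320, at 64.4 ± 1.3, 30.3 ± 0.9, 26.2 ± 0.4, 0.446 ± 0.066, 0.101 ± 0.066 and 0.0766 ± 0.0197 RPKM (SD, n = 3), and HCT-15 and COLO 320 overlapped. SLC1A4 spanned 24.5 times, with 66.1 ± 1.3 RPKM in COLO 205 and 2.70 ± 0.34 RPKM in HCT 116. SLC43A1 spanned 9.31 times, SLC1A5 5.93 times and SLC38A2 5.41 times, the last through HCT 116 alone at 228 ± 10 RPKM, the other lines lying between 42.2 and 57.3 RPKM. SLC6A6, SLC7A5, SLC7A1 and SLC3A2 spanned 2.34 to 3.11 times. SLC38A1 spanned 1.24 times, 58.0 ± 0.4 RPKM in HT-29 to 71.7 ± 1.4 RPKM in COLO 205, and COLO 320, HCT-15 and SW 480 overlapped in its order. DMSO levels differed between lines for 9 of the 9 members other than SLC38A5, as for 98.8% of genes tested.

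MYC and ATF4 also changed in these libraries. MYC fell in all 6 lines, least in SW 480 (-0.14) and most in HT-29 (-1.35). In COLO 320 MYC averaged 1176 RPKM with JQ1 and 1849 RPKM with DMSO, while its DMSO mean was 190 RPKM or less in the other lines. ATF4 rose in SW 480 with 89.0 ± 1.6 RPKM with JQ1 and 59.7 ± 1.4 RPKM with DMSO (SD, n = 3 each, log2 change 0.57, limma adjusted p 7.58e-20). It fell in the other 5 lines, most in COLO 205 (-0.96) with 55.7 ± 1.0 RPKM with JQ1 and 109 ± 2 RPKM with DMSO. SW 480 was also the line with the largest rises of SLC38A2 and SLC1A4 and the only one in which SLC7A1 rose, yet SLC38A5 there fell 5.35-fold on the log2(RPKM + 0.5) scale. Whether either factor had a part in any member's change was not tested.

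Among 35 other transporters of the plasma membrane, 17 could be tested, of which 2 rose on average, 12 fell and 3 did not pass, beside 40.2% of all genes tested called higher and 48.3% lower. With the cell line as the unit the counts were 1 and 3, beside 2815 and 3086 of all 15542 genes tested at that unit. SLC7A11 (xCT), the cystine and glutamate exchanger that pairs with SLC3A2, fell most (-1.14 ± 0.02, limma adjusted p 1.29e-29). In HT-29 it averaged 4.15 ± 0.11 RPKM with JQ1 and 17.8 ± 0.6 RPKM with DMSO (SD, n = 3 each), but in SW 480 it rose, with 5.74 ± 0.04 RPKM with JQ1 and 2.94 ± 0.10 RPKM with DMSO (0.86). SLC6A9 (glycine carrier, -0.99), SLC7A7 (another light chain of SLC3A2, -0.71) and SLC1A3 (glutamate carrier, -0.64) followed. SLC43A2 (LAT4), a near relative of SLC43A1, rose in all 6 lines (average 0.58 ± 0.02, adjusted p 9.37e-22), as did 11.2% of genes tested. In SW 480 it averaged 21.9 ± 1.0 RPKM with JQ1 and 10.8 ± 0.8 RPKM with DMSO, a change of 0.99, beside the 0.15 of SLC43A1 there. The other average rise was that of SLC3A1 (0.15). Of the 3 with the highest mean level, SLC7A6 fell by 0.27, SLC7A8 differed by -0.01 (adjusted p 0.571), and the third was SLC43A2. The median of the 17 was -0.18.

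**Figure D5:**
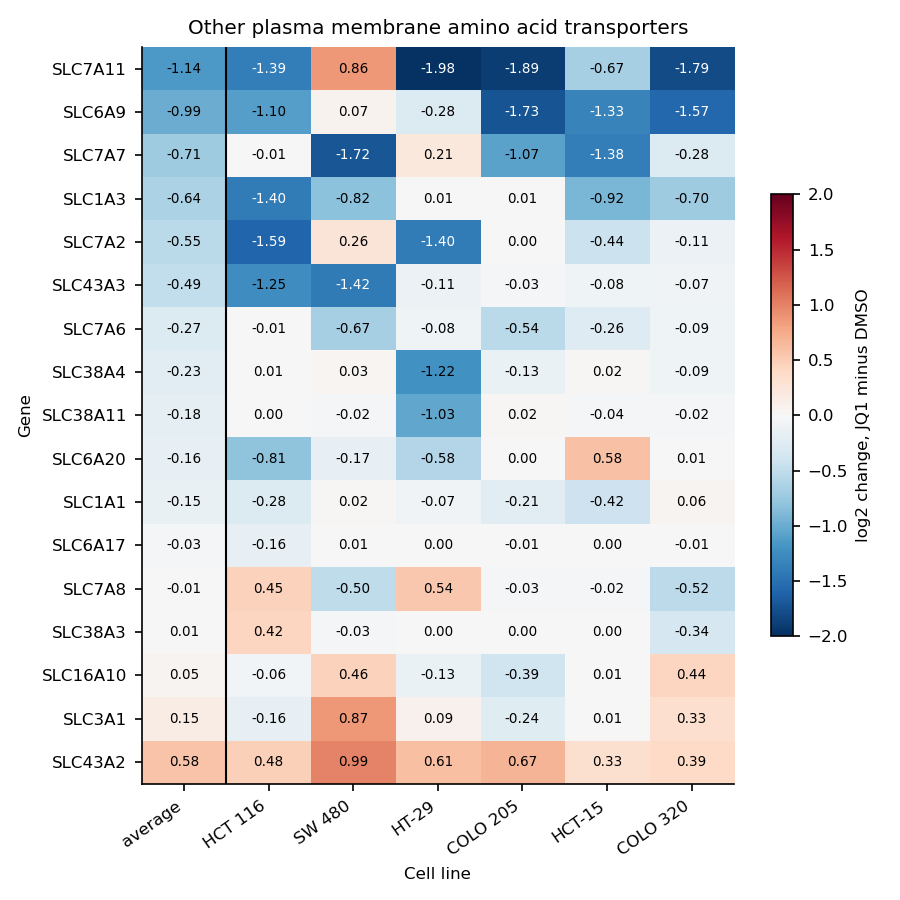
JQ1 minus DMSO on the log2(RPKM + 0.5) scale for the 17 tested plasma membrane transporters that are not among the 10 members, by gene (rows, sorted by the average) and by average and cell line (columns), red higher and blue lower with JQ1. SLC43A2 is higher in all 6 lines, and SLC7A11 is lower in 5 lines and higher in SW 480 (0.86).

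Inside the cell, 7 of 16 tested lysosomal, mitochondrial and other transporters rose on average and 9 fell (median -0.26), beside 40.2% and 48.3% of all genes tested. With the line as the unit 3 rose, and that unit called 2815 of all 15542 genes higher and 3086 lower. CTNS, the lysosomal cystine exporter, rose in all 6 lines (average 0.74), and so did SLC38A10 (0.63). MFSD12 (lysosomal cysteine import) rose on average (0.33). It did not pass in HT-29 (-0.05, limma adjusted p 0.218) or COLO 320 (-0.05, adjusted p 0.279). The mitochondrial carriers SLC25A15 (ornithine, -0.89), SLC25A12 (aspartate and glutamate, -0.65) and SFXN1 (serine, -0.52) each fell in all 6 lines. Of 32 genes by which mTORC1 senses amino acids, 19 rose, 11 fell and 2 did not pass (median 0.09), against the same shares of all genes. With the line as the unit 11 rose and 5 fell, against the same counts over all genes at that unit. SESN3, a sestrin, rose most (1.24), passing in every line but HCT 116 (0.20, limma adjusted p 0.0948). Its DMSO mean was near 0 in HT-29 (0.151 RPKM, 21 reads), COLO 205 (0.228 RPKM, 32 reads) and HCT-15 (0.0835 RPKM, 14 reads). With JQ1 SESN3 averaged 1.40, 1.05 and 1.59 RPKM in these lines. RRAGC (0.74) and SAMTOR (0.52) rose, while RRAGD (-0.64), NPRL3 (-0.54) and LAMTOR4 (-0.51) fell. Of the most highly expressed of these, LAMTOR5 rose by 0.07 and LAMTOR1 differed by 0.00 (adjusted p 0.921).

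Of 19 genes that use glutamine and neutral amino acids, 5 rose on average and 14 fell (median -0.24), beside 40.2% and 48.3% of all genes tested. With the line as the unit 2 rose and 7 fell, beside 2815 and 3086 of all 15542 genes at that unit. PYCR1 (proline synthesis, average -0.99) and GOT2 (mitochondrial aspartate aminotransferase, -0.39) fell in all 6 lines. PSAT1 (serine synthesis, average -0.64) fell in 5 lines and rose in SW 480 (1.16). GLUL, which makes glutamine, rose on average by 0.57 and ASNS, which uses it to make asparagine, by 0.90. ASNS rose in 4 lines and fell in COLO 205 (-0.57) and COLO 320 (-0.48). Of 12 regulators of surface transporters and their genes, 5 rose and 7 fell, beside 40.2% and 48.3% of all genes tested. With the line as the unit 1 rose and 3 fell, beside the same counts over all genes at that unit. TXNIP (1.69), TRIB3 (-1.47), TFEB (-0.86), MYC (-0.83), MYCN (-0.42) and ATF4 (-0.34) are those with the largest changes or highest levels. TXNIP, an arrestin known for holding back glucose uptake, averaged 331 ± 2 RPKM with JQ1 and 41.7 ± 2.1 RPKM with DMSO in HT-29, and rose in every line but HCT 116, where it stood at 0.180 ± 0.020 RPKM with JQ1 and 0.209 ± 0.140 RPKM with DMSO.

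Over the 12 group means of log2(RPKM + 0.5), the genes most like SLC38A5 were NDC80 (Pearson r 0.933), NSUN5 (0.930), PRPF19 (0.922), ELFN1 (0.920) and SARDH (0.918). None of the other 9 members was above 0.304 (SLC1A5). Over the 6 within-line changes the most alike were KICS2 (0.993), ANO1 (0.985), EMILIN2 (0.979), FXYD5 (0.979) and MRPL23 (0.974), and the most alike member was SLC7A5 (0.665). A high r over these changes reflects the order of the lines, not a shared direction. KICS2 had lower means with JQ1 in HCT 116, SW 480 and HT-29 and higher ones in COLO 205, HCT-15 and COLO 320. In COLO 320 it averaged 9.65 RPKM with JQ1 and 7.60 RPKM with DMSO. ANO1, a calcium-activated chloride channel, averaged 4.68 RPKM with JQ1 and 42.8 RPKM with DMSO in HT-29. The points share their libraries, and with so few of them many genes of a large table reach high values, so these are descriptions.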

How the data were processed

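RNA sequencing measured genes in 36 libraries of 6 lines, grouped by the labels alone. Per the labels' protocols, RNA was purified on columns with DNase and libraries made with a TruSeq kit. The labels do not say whether libraries kept strand, so overlapping antisense reads cannot be told apart. The authors deposited RPKM per gene. The submitters' processing notes name limma, DESeq and GSNAP without versions, and the build NCBIM37, a mouse name although the cells are human, so coordinates here come only from RefSeq GRCh38.p14. Symbols were matched on Entrez number for 24519 of 26468 genes.

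Whole reads were recovered from steps between the deposited RPKM values, within 0.0001 read, for 100% of the 23499 genes above 0. Libraries held 18.8 to 53.1 M reads. The library divisor behind the deposited values equalled a median-of-ratios size factor. No replicate pair agreed within sampling noise (chi-square per gene 1.22 to 3.20 over 36 pairs).

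The main test was limma 3.58.1 in R 4.3.3 on log2(RPKM + 0.5), over 15542 genes with 1 RPKM or more in at least 3 libraries, all 12 groups in 1 fit with a mean-variance trend. The two-sided p-values were Benjamini-Hochberg adjusted within each contrast over all genes, called under 0.05. The average is the mean of the 6 within-line differences, and it shares libraries with each of them. The script was tested on simulated data. Alternatives were pseudocounts, filters, scalings, voom on recovered reads, no trend, lines fitted alone, the line as unit, a replicate block, and leaving out each library or line. Tables and figures used Python 3.11.15, pandas 2.3.3, scipy 1.17.1 and matplotlib 3.10.9.

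The members and lists were chosen with earlier results of these data known. Named genes are all 10 members, MYC and ATF4, and of each list the 5 called genes with the largest average change, the 3 with the highest level and up to 3 that went against the rest. The 5 genes most like SLC38A5 were also named, with ratios, sums and single examples chosen after their values were seen. A gene that this rule names in the list on glutamine use is not reported here.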

Additional observations from a re-analysis of the deposited data

Results flagged for a closer look

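These genes were singled out because the size or direction of the JQ1 effect differed between lines, by limma's F test over the 6 within-line changes, as it did for 93.3% of genes tested. Among the members the adjusted p was 1.95e-23 for SLC38A1, lower everywhere but by -1.48 in HT-29 and -0.31 in SW 480. It was 1.1e-20 for SLC38A2, lower only in HCT 116 among the 6 lines. For the LAT1 chains it was 2.03e-23 (SLC7A5) and 2.2e-23 (SLC3A2), both lowest in HT-29. It was 2.94e-16 for SLC1A5, between -0.42 in HT-29 and 0.43 in COLO 205, and 6.83e-16 for SLC1A4, between -0.57 in HT-29 and 1.05 in SW 480. It was 1.79e-24 for SLC7A1, 4.46e-19 for SLC43A1, for which COLO 205 fell most (-2.51), and 2.41e-11 for SLC6A6.

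Of the other genes named, MYC had 8.69e-22 and ATF4 3.82e-25, the ATF4 level being higher with JQ1 in SW 480 and lower in the other lines. SLC7A11 (3.2e-25) shared that split of signs. ASNS had 5.72e-26, with 2.97 in SW 480 and -0.57 in COLO 205. SLC43A2 had 1.73e-09, with a rise in all 6 lines of 0.33 to 0.99. Further genes named above passed the same F test but were not singled out. They include PSAT1 (adjusted p 1.26e-26), TXNIP (1.04e-21), TRIB3 (3.44e-19), CTNS (2.19e-15) and SESN3 (1.34e-11).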

How the results depend on the processing

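Most values kept direction and side of the threshold. Of the values on single members, 1353 did so under the alternatives, 20 gained a call, 19 lost one and 3 reversed. The reversals were SLC1A5's average (main -0.01), 0.072 without HT-29 and 0.042 without COLO 320, and SLC1A4's average (main 0.06), -0.14 without SW 480. Of listed genes, SLC7A8's average (main -0.01) was 0.11 with pseudocount 0.1, 0.061 with quantile scaling, 0.21 with voom, 0.086 without SW 480 and 0.089 without COLO 320. LAMTOR1's (main 0.00) was -0.035 with total reads as divisor, -0.043 without HT-29 and -0.030 without COLO 205.

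With the cell line as the unit, which leaves 6 differences, limma on the average called 0 of the 9 members higher (main 2, and also 0 at an unadjusted p under 0.05) and 3 lower (main 6). Over all 15542 genes tested it called 2815 higher and 3086 lower (main 6245 and 7500). At that unit the counts of higher and lower were 1 and 3 for other plasma membrane transporters (main 2 and 12), 11 and 5 for mTORC1 sensing (main 19 and 11), 2 and 7 for glutamine use (main 5 and 14) and 1 and 3 for regulators (main 5 and 7). For intracellular transporters 3 were higher (main 7). Members higher on average were 1 with pseudocount 0.1, with total reads, and without HCT 116, SW 480 or HCT-15. Members higher in HCT 116 (main 2) were 1 with total reads or the line fitted alone, in SW 480 (main 3) 5 with median centring or voom, and in HCT-15 (main 3) 5 with voom or the line alone. Leaving out single libraries gave 1 to 2 higher in HCT 116 and 3 to 5 in SW 480, the 5 without JQ1 replicate 1. Plasma membrane transporters higher were 5 with quantile scaling and 4 without COLO 320. Regulators higher were 3 with total reads and without COLO 320. The cause was not tested.

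Replicate numbers did not pair the libraries (same-number r of deviations -0.148 to 0.0492), and with them as a replicate block the average again called 2 members higher and 6 lower. SLC38A5's log2 change depended on the pseudocount where it was low: in COLO 205 it was -2.20 at 0.1 and -0.50 at 1, against -0.86, and in HT-29 -5.49 and -4.20. Scalings moved the median of all genes to between -0.07 and 0.00. Depth limits SLC38A5 in HCT-15 and COLO 320, with 9 and 5 reads with JQ1 and 17 and 13 with DMSO.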
